A study of Mus musculus with 42 samples.

Results

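The Hox genes were examined for their position relative to lamina-associated domains (LADs), stretches of chromatin bound by lamin B1 (LMNB1) of the nuclear lamina, in mouse liver. Members were all protein-coding genes of the mm10 annotation (GENCODE vM21) whose symbol is Hoxa, Hoxb, Hoxc or Hoxd followed by a digit, which gave 39 of 21938 protein-coding genes. They fall into 4 clusters, HoxA with 11 genes, HoxB with 10, HoxC with 9 and HoxD with 9. Genes of a cluster share their position, so the 39 genes are 4 loci and not 39 independent ones. LMNB1 ChIP-seq, which sequences the DNA that co-precipitates with LMNB1, had been done on liver pieces of wild-type C57Bl/6 mice, with 1 mouse per library and 14 libraries in all. NS mice were non-synchronized and were killed at noon before any food restriction. CT0 mice had been fasted for 24 h, and CT6, CT12, CT18, CT24 and CT30 mice had been fasted and then refed ad libitum from CT0, the hours after CT0 being the number in the name. Each of these 7 time points had 2 mice, kept in cycles of light and dark. Sex is given as female in one field of the labels and as male in another, and age is not given. The mice carried no transgene. Whole liver pieces were used, so each LAD is an average over the cell types of the liver, and no RNA was analysed here to check the tissue by its markers.

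Hox genes encode homeodomain transcription factors that give cells their position along the head-to-tail axis of the embryo. Paralogues are numbered from group 1, used towards the head, to group 13, used towards the tail, and this order is also the order of the genes along each cluster. Where they are not used, the clusters are held silent by Polycomb group proteins. LADs are mostly gene-poor, AT-rich heterochromatin, and gene deserts are often found in them.

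In mm10 coordinates, HoxA lies at chr6:52155590-52260880 (105 kb), HoxB at chr11:96194316-96368256 (174 kb), HoxC at chr15:102921103-103036852 (116 kb) and HoxD at chr2:74668310-74765142 (96.8 kb). The group 13 gene is at the lower coordinate in HoxB, HoxC and HoxD, which are on the plus strand, and at the higher one in HoxA, on the minus strand. HoxC ends 1.01 Mb from the end of its chromosome, on the side of Hoxc4. GC content was 50.0% in HoxA, 48.9% in HoxB, 49.0% in HoxC and 49.4% in HoxD, against a median of 41.4% over 23868 autosomal windows of 100 kb. Repeats, as soft-masked bases of the reference, made up 13.4% of HoxA, 24.6% of HoxB, 15.9% of HoxC and 14.4% of HoxD, against a median of 31.7% of a window. Only 0.285% of the windows had a lower share of repeats than HoxA and 0.633% a lower share than HoxD, compared with 1.50% for HoxC and 22.7% for HoxB.

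The sequence of Hox start sites shows this base composition at the scale of a promoter. The 250 bases that end at the RefSeq start are shown for 1 end gene of each cluster on the gene's strand, from GRCm38.p6, with each CpG in capitals. They are chr6:52260881-52261130 for Hoxa13 (minus strand, 35 CpG, 80% GC), chr2:74667975-74668224 for Hoxd13 (plus strand, 31 CpG, 74.4% GC), chr15:103034145-103034394 for Hoxc4 (plus strand, 8 CpG, 62.0% GC) and chr11:96365508-96365757 for Hoxb1 (plus strand, 7 CpG, 59.2% GC).
Hoxa13: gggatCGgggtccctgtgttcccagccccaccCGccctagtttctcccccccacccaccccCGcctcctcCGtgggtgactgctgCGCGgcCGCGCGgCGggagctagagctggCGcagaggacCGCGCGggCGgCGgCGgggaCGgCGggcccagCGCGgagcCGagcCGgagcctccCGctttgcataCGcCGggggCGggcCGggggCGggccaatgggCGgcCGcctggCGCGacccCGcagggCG
Hoxd13: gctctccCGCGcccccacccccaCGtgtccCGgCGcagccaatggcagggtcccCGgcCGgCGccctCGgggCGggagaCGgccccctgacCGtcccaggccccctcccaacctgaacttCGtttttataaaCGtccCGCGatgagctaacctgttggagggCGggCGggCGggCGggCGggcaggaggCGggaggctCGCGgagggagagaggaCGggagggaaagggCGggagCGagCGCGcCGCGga
Hoxc4: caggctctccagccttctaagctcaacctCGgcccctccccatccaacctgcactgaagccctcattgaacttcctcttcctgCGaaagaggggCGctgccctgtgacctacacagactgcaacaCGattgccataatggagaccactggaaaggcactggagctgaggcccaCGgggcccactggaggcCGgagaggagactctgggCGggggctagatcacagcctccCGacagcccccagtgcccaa
Hoxb1: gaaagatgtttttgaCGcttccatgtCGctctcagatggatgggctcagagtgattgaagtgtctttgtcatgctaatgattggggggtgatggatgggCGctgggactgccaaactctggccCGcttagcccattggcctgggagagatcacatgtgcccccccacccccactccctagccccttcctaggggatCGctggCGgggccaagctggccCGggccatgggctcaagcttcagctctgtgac
RefSeq promoters were matched for 22 of the 39 genes, 24 promoters in all. Each held at least 2 CpG and at most 35, the count of Hoxa13, with a median of 12.5, and the median GC content was 58.6%. The RefSeq start of Hoxc4 lies inside the GENCODE gene used for the LAD state, which starts at chr15:103018934. Over all 32851 promoters of the same length the median was 6 CpG and 52.4% GC, and 92.1% held the motif CG at least once, against 100% of the Hox promoters. The 46 promoters inside LADs of all 14 libraries had a median of 9.5 CpG and 50.4% GC. These are descriptions of sequence.

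No Hox gene was in a LAD. The start site lay outside LADs for 39 of 39 genes in each of the 14 libraries, and so did every gene body. Over all protein-coding genes, the start site was in a LAD for 4.02% (NS replicate 1) to 10.4% (CT18 replicate 2) of genes in single libraries, for 16.7% (3653 genes) in at least 1 library and for 0.83% (182 genes) in all 14, and 17.1% had a gene body that touched a LAD in at least 1 library. A count of 0 of 4 loci is thus close to what that background gives, and by itself it does not set the Hox genes apart. The libraries held 86 to 341 LADs, which covered 335 to 663 Mb, or 12.3 to 24.3% of the genome.

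The Hox genes lay megabases from LADs in every library, though not always farther than other genes. All 39 genes were more than 2 Mb from every LAD in all 14 libraries, which held for 43.2% (8993 of 20807) of autosomal protein-coding genes. In single libraries, 50.8% (CT18 replicate 2) to 84.5% (NS replicate 1) of genes were that far. The median Hox distance was between 4.72 and 5.50 Mb in every library, while the median of the other genes ran from 2.17 Mb (CT18 replicate 2) to 9.85 Mb (NS replicate 1). The Hox median falls among the HoxA genes in most libraries, and in 5 libraries, NS replicate 1, CT0 replicate 1, CT6 replicate 1 and both CT30 libraries, the other genes had the larger median. HoxA and HoxD lie in gene-poor surroundings, with 18 and 29 other protein-coding start sites within 2 Mb of either end, compared with 97 for HoxB, 82 for HoxC and a median of 54 for autosomal genes. Hox genes were left out of the cluster counts, while the counts for autosomal genes include every neighbour, so the 2 counts are not fully alike. Among the 5356 autosomal genes with at most 29 neighbours, the HoxD count, 26.9% were more than 2 Mb from every LAD in all 14 libraries. HoxA and HoxD lay that far too.

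**Figure D1:**
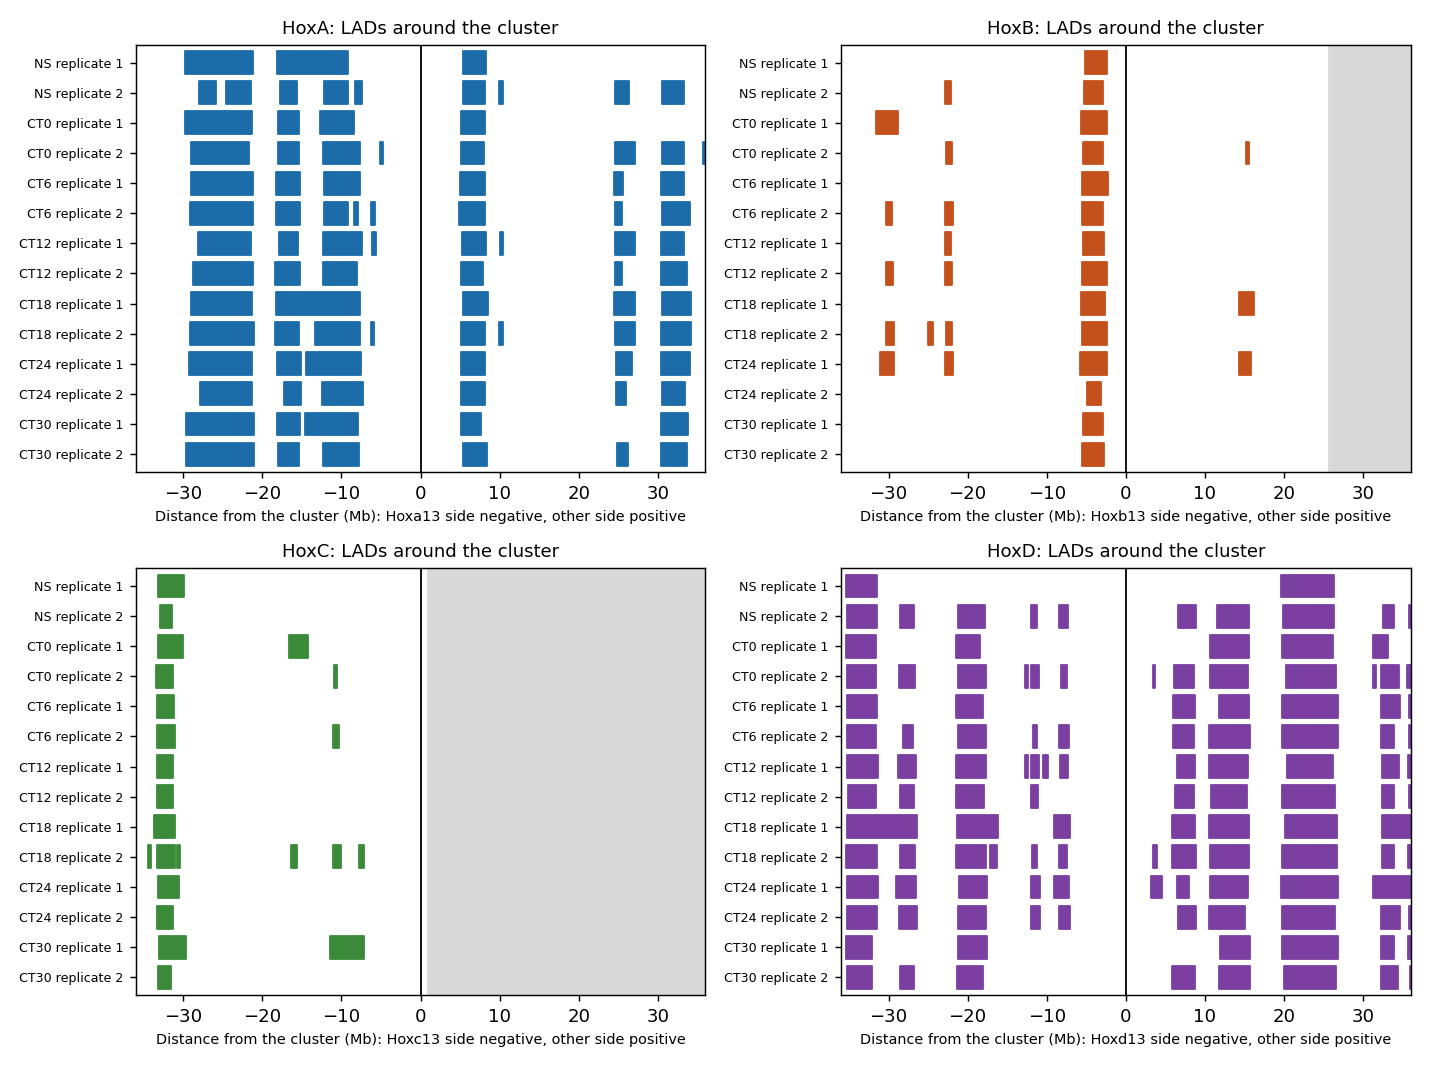
LADs around the 4 Hox clusters in each of the 14 libraries (rows, 2 mice per time point). The x axis is the distance from the cluster in Mb, with the group 13 side negative, bars are LADs, the line at 0 is the cluster and grey is beyond the chromosome end. The nearest LAD of HoxA lay on its lower-coordinate side (positive) and that of HoxB on the Hoxb13 side in nearly every row, and HoxC had LADs closer than 20 Mb in 5 rows only.

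The clusters differed from each other in how far the nearest LAD was and in how steady that distance was. HoxB was closest, at 2.63 ± 0.287 Mb (SD, n = 14), followed by HoxA at 5.14 ± 0.193 Mb, HoxD at 7.28 ± 4.32 Mb and HoxC at 23.5 ± 10.6 Mb. HoxB was closer than HoxA in 14 of 14 libraries, by 2.51 Mb on average (exact two-sided sign-flip permutation test over libraries, Benjamini-Hochberg adjusted over 6 pairs of clusters, adjusted p = 0.000183). HoxC was farther than HoxA in 14 of 14 libraries, by 18.4 Mb, and farther than HoxB in 14 of 14, by 20.9 Mb (adjusted p = 0.000183 for each, exact permutation test). HoxD was farther than HoxB in 14 of 14 libraries, by 4.65 Mb (adjusted p = 0.000183), and farther than HoxC in only 1 of 14 (CT30 replicate 1), with a mean difference of -16.2 Mb (adjusted p = 0.000732, exact permutation test). Each of these p-values tests whether the mean difference over the 14 libraries is 0, at 4 fixed loci. The libraries differ in mouse and also in time point. HoxD and HoxA did not pass, with a difference of 2.14 ± 4.26 Mb that ranged from -1.87 to 14.4 Mb and was above 0 in 11 of 14 libraries (p = 0.0555, exact permutation test). HoxD was closer to a LAD than HoxA in CT0 replicate 2, CT18 replicate 2 and CT24 replicate 1. Leaving out any 1 of these libraries therefore raises the difference by construction. The difference then passed (p = 0.0315, 0.0259 and 0.0215, exact permutation test, at 2.41, 2.43 and 2.45 Mb). Without NS replicate 1 it fell to 1.2 Mb (p = 0.111, exact permutation test). Within the clusters the genes differed little, since the distance follows position. Mean distances ran from 2.63 Mb (Hoxb13) to 2.80 Mb (Hoxb1), from 23.5 Mb (Hoxc13) to 23.6 Mb (Hoxc4), and from 7.28 Mb (Hoxd1) to 7.37 Mb (Hoxd13). Of the other autosomal genes, 39.5% had a larger median distance than HoxA, 59.1% than HoxB, 34.0% than HoxD and 3.07% than HoxC.

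HoxA had the steadiest distance. It was 5.31 and 5.35 Mb in the NS mice, 5.06 and 4.72 at CT0, 4.94 and 4.92 at CT6, 5.31 and 5.17 at CT12, 5.42 and 5.09 at CT18, 5.12 and 5.10 at CT24 and 5.10 and 5.33 at CT30. The nearest LAD was on the lower-coordinate side of the cluster in 13 libraries and on the Hoxa13 side in CT0 replicate 2. On the lower-coordinate side it was the same region in all 14 libraries, chr6:43681001-47234000 as the union over libraries, whose border towards HoxA varied by 0.152 Mb (SD). The region holds 1 protein-coding start site, that of Cntnap2, a long neuronal gene that encodes a cell adhesion protein of the neurexin family. The genes of LAD regions named here and below were chosen after their values were seen. Coordinates and genes of a LAD region are those of the union over libraries. The LAD of a single library can cover only part of a region and of its genes. On the Hoxa13 side the LAD found in all 14 libraries began 7.25 to 9.17 Mb away. Closer LADs on that side, at chr6:56984001-57396000 in CT0 replicate 2 and at chr6:57885001-58542000 in 3 libraries, held Vmn1r genes, which encode vomeronasal pheromone receptors.

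HoxB stood nearest to a LAD although its flanks are rich in genes. The distances were 2.32 and 2.87 Mb in the NS mice, 2.34 and 2.89 at CT0, 2.25 and 2.90 at CT6, 2.80 and 2.37 at CT12, 2.60 and 2.38 at CT18, 2.32 and 3.08 at CT24 and 2.85 and 2.81 at CT30. The nearest LAD was on the Hoxb13 side in 14 of 14 libraries, in the region chr11:90398001-93940000, which holds Car10 and Kif2b. Its border reached into the gene-free interval between Car10 and Utp18 in 6 libraries, NS replicate 1, CT0 replicate 1, CT6 replicate 1, CT12 replicate 2, CT18 replicate 2 and CT24 replicate 1. On the Hoxb1 side no LAD lay between the cluster and the chromosome end, 25.7 Mb away, in 11 libraries. In CT0 replicate 2, CT18 replicate 1 and CT24 replicate 1 a LAD began there at 14.3 to 15.2 Mb. Its length ran from 0.396 Mb (CT0 replicate 2) to 1.90 Mb (CT18 replicate 1). The union of these LADs holds the potassium channel genes Kcnj16 and Kcnj2.

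HoxC was the most remote and the most variable. Its distances were 29.9 and 31.4 Mb in the NS mice, 14.3 and 10.6 at CT0, 31.1 and 10.3 at CT6, 31.3 and 31.3 at CT12, 31.1 and 7.20 at CT18, 30.5 and 31.3 at CT24 and 7.16 and 31.6 at CT30. The values fell into 9 libraries near 30 Mb and 5 at 7 to 15 Mb. The far LAD region, chr15:69217001-73222000, held LADs in all 14 libraries, which covered 1.59 to 3.41 Mb of it. Its genes over the union of libraries include Col22a1 and Trappc9. Nearer LADs lay in the region chr15:91419001-95759000, whose genes include Cntn1 and Pdzrn4. It held LADs in CT0 replicate 2, CT6 replicate 2, CT18 replicate 2 and CT30 replicate 1. Only in CT30 replicate 1 did 1 LAD cover all of it (4.34 Mb). In CT0 replicate 2 the LAD covered 0.372 Mb, and CT18 replicate 2 had separate LADs in the region. The region chr15:86292001-88642000 held a LAD in CT0 replicate 1 and CT18 replicate 2. Base pairs that were in LADs of both mice of a time point lay 31.1 to 31.6 Mb from HoxC at all 7 time points, so the nearer LADs were not shared by the mice of any time point. No LAD lay on the Hoxc4 side in any library.

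HoxD had its nearest LAD on the Hoxd1 side in 14 of 14 libraries, at one of 4 places. The distances were 19.7 and 6.59 Mb in the NS mice, 10.7 and 3.39 at CT0, 5.91 and 5.94 at CT6, 6.51 and 6.26 at CT12, 5.87 and 3.46 at CT18, 3.24 and 6.61 at CT24 and 11.9 and 5.87 at CT30. The LAD at chr2:80636001-83610000, with Zfp804a, was in 11 libraries, and the 3 without it were NS replicate 1, CT0 replicate 1 and CT30 replicate 1, where HoxD was farthest from a LAD. The caller's bins, the step in which it scans the genome, were 61, 47 and 31 kb wide in those libraries, and 4 to 46 kb in the other 11. Their LAD coverage was 335, 424 and 405 Mb, against 392 to 663 Mb in the others, and the part of bin size and coverage in the result was not tested. Nearer still, the region chr2:78008001-79310000 held a LAD in CT0 replicate 2, CT18 replicate 2 and CT24 replicate 1. Only the LAD of CT24 replicate 1 covered all of it (1.30 Mb), with Ube2e3 and Itga4. That of CT0 replicate 2 covered 0.324 Mb. Farther out on this side, a LAD over a cluster of olfactory receptor (Olfr) genes, chr2:85248001-90458000, was in 13 libraries, and chr2:94428001-101626000 was in all 14. On the Hoxd13 side the nearest LAD was 7.05 to 31.4 Mb away (median 7.43 Mb). There, the region chr2:65618001-67621000, which holds the sodium channel genes Scn1a, Scn2a, Scn7a and Scn9a, had LADs in 8 libraries. These covered 0.736 to 1.995 Mb of it.

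**Figure D2:**
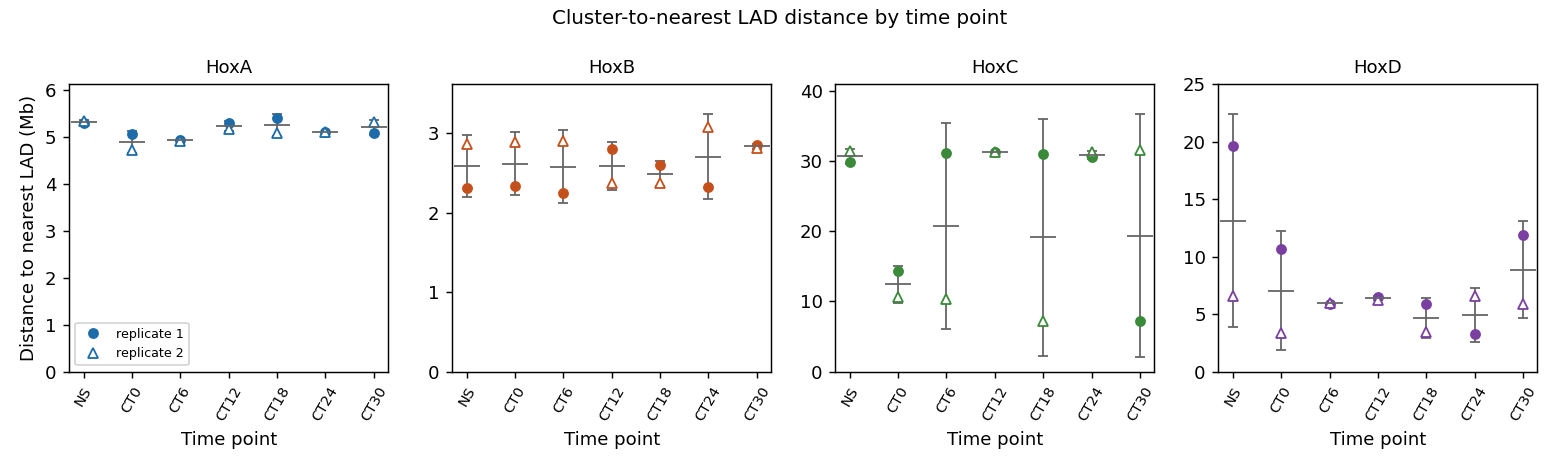
Distance from each Hox cluster to the nearest LAD (y axis, Mb, from 0) at each time point (x axis). Filled circles are replicate 1, open triangles replicate 2, and the grey dash and bars are the mean ± SD of the 2 mice. The scales differ between panels, HoxA spans 4.72 to 5.42 Mb and HoxC 7.16 to 31.6 Mb, and the 2 mice of a time point were often as far apart as the time points.

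Whether the distance changed over the circadian cycle was tested on the 12 CT libraries. No difference between the 6 CTs passed the test at any cluster (F ratio against its value in each of the 10395 ways to pair up the libraries, an exact permutation test, Benjamini-Hochberg adjusted over the 4 clusters). F was 2.03 for HoxA (adjusted p = 0.864 by the exact permutation test), 0.221 for HoxB (0.920), 0.814 for HoxC (0.920) and 0.536 for HoxD (0.920). Mean distances of a CT ran from 4.89 ± 0.239 Mb (CT0) to 5.25 ± 0.233 Mb (CT18) for HoxA, and from 2.49 ± 0.157 Mb (CT18) to 2.83 ± 0.0276 Mb (CT30) for HoxB. For HoxC they ran from 12.4 ± 2.63 Mb (CT0) to 31.3 ± 0.0106 Mb (CT12) and for HoxD from 4.67 ± 1.70 Mb (CT18) to 8.88 ± 4.25 Mb (CT30), each with SD and n = 2.

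NS and CT0 mice differed by the fast and also in time of day, noon against lights on, and these cannot be told apart. HoxC was 30.7 ± 1.06 Mb from a LAD in NS mice and 12.4 ± 2.63 Mb at CT0, and HoxA 5.33 ± 0.0283 Mb and 4.89 ± 0.239 Mb (SD, n = 2 each). Both CT0 mice were closer to a LAD than both NS mice at these 2 clusters, and thus at 20 of 39 genes, compared with 11.1% of autosomal genes. Both were farther at 0 Hox genes, compared with 9.06%. For both clusters the exact two-sided permutation test gave p = 0.333, the smallest that 2 mice against 2 allow, so this comparison cannot pass. The mice of NS and CT0 overlapped at HoxB (2.59 ± 0.390 and 2.61 ± 0.395 Mb) and at HoxD (13.1 ± 9.24 and 7.04 ± 5.15 Mb), where the exact permutation test gave p = 0.667. At HoxC the LADs that brought the CT0 mice closer were different ones in each mouse. At HoxA the lower CT0 value was that of the Vmn1r LAD of CT0 replicate 2. When LADs under 1 Mb were left out, the difference shrank from -18.2 to -7.85 Mb at HoxC (p = 0.667, exact permutation test), where the mice then overlapped, and from -0.435 to -0.217 Mb at HoxA.

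The flanks of the clusters were free of LADs as far as 2 Mb. Each of the 8 flanks of 2 Mb, or 1.01 Mb on the Hoxc4 side, had 0% of its base pairs in LADs in all 14 libraries, so that no test between sides or CTs could be made. Around autosomal genes, coverage averaged 9.65% within 1 Mb and 13.1% from 1 to 2 Mb. With flanks of 3 Mb, only the Hoxb13 side held LADs, in 13 of 14 libraries, with 0% to 24.9% of the flank covered and a median of 9.92%. With flanks of 10 Mb, chosen after the data had been seen, the lower-coordinate side of HoxA had more coverage than the Hoxa13 side (30.0 ± 1.96% and 22.0 ± 5.88%) and the Hoxd1 side more than the Hoxd13 side (21.0 ± 11.9% and 7.47 ± 7.44%). The Hoxb13 side had 28.3 ± 4.46% and the Hoxb1 side 0% (SD, n = 14). As this flank size was picked with the LAD positions in view, these values are a description. The side with more LADs was thus the one away from the group 13 gene in HoxA and HoxD and that of the group 13 gene in HoxB.

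**Figure D3:**
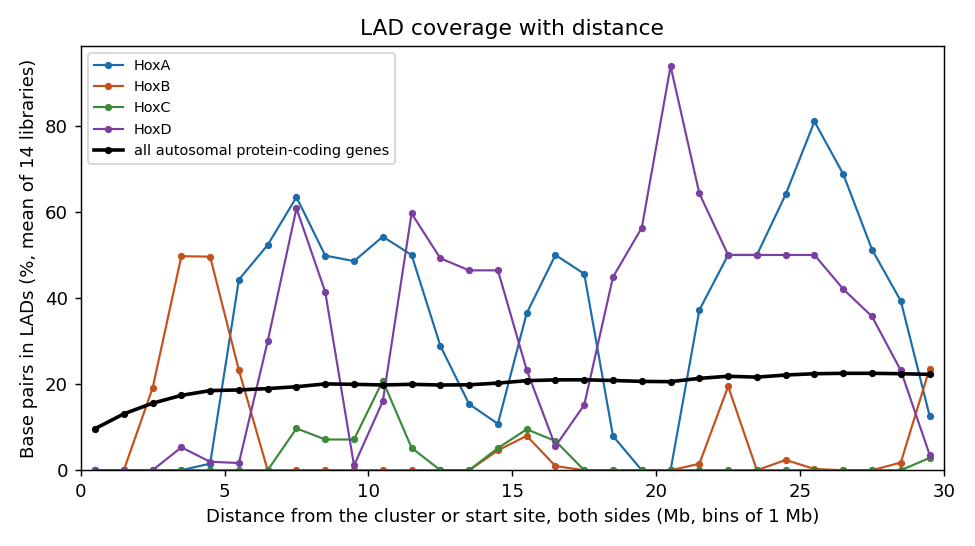
Share of base pairs in LADs (y axis, %, mean of 14 libraries) against distance from a Hox cluster, both sides together (x axis, bins of 1 Mb), with the mean over all autosomal protein-coding genes in black. All 4 clusters are at 0% in the bins below 2 Mb, where the genes average 9.65% and 13.1%, and HoxB is the first to rise, to 49.7% at 3 to 4 Mb, followed by HoxA with 44.3% at 5 to 6 Mb.

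The longest gene-free intervals beside HoxA and HoxD are gene deserts, and none of them held a LAD. Such an interval was the longest stretch without a protein-coding gene within 3 Mb on a side. On the lower-coordinate side of HoxA it is 778 kb between Npvf and Nfe2l3 (chr6:50654440-51432669, 44.1% GC), on the Hoxd13 side 609 kb between Atp5g3 and Lnpk (chr2:73911327-74520290, 41.9% GC), and on the Hoxd1 side 781 kb between Mtx2 and Hnrnpa3 (chr2:74878432-75659260, 42.6% GC). The deserts on both sides of HoxD are known to hold the enhancers that drive Hoxd genes in the developing limb. In all 14 libraries the nearest LAD was at least 3.42 Mb from the desert on the lower-coordinate side of HoxA, 3.49 Mb from that on the Hoxd13 side and 2.35 Mb from that on the Hoxd1 side. By comparison, 53% of the 353 autosomal gene-free intervals of 0.5 to 1 Mb, these 3 included, held part of a LAD in at least 1 library, and 13.3% (NS replicate 1) to 41.9% (CT18 replicate 2) did in single libraries. The 3 deserts lie at 2 loci, so that their absence from LADs is a description.

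Gene-free intervals elsewhere around the clusters were shorter. The longest was 228 kb on the Hoxa13 side (between Evx1 and Hibadh), 96.3 kb on the Hoxb1 side (Hoxb1 and Skap1), 199 kb on the Hoxc13 side (Calcoco1 and Hoxc13) and 187 kb on the Hoxc4 side (Glycam1 and Mucl1), all with 0% in LADs in every library. On the Hoxb13 side it was the 257 kb between Car10 and Utp18 (chr11:93601750-93859242), which is 2.34 Mb from HoxB and was in a LAD, up to all of it, in 6 libraries. Protein-coding start sites per Mb of the 2 Mb flanks were 4.0 on the Hoxa13 side and 5.0 on the other side of HoxA, 7.0 and 7.5 on the Hoxd13 and Hoxd1 sides, 23.5 and 25.0 on the Hoxb1 and Hoxb13 sides, and 15.9 and 33.0 on the Hoxc4 and Hoxc13 sides. The sparse flanks of HoxA and HoxD and the dense ones of HoxB and HoxC were thus alike at 0% LAD coverage.

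**Figure D4:**
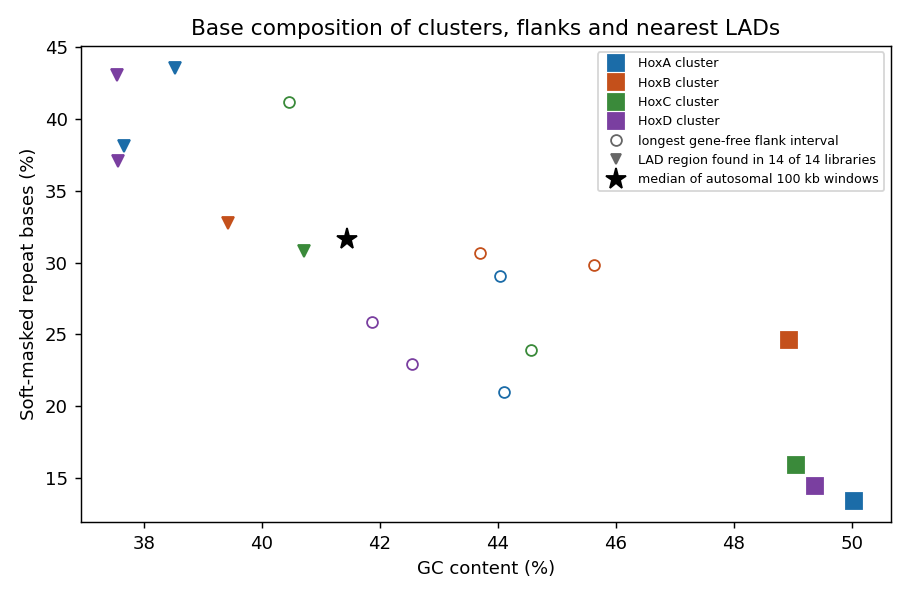
GC content (x axis, %) against the share of soft-masked repeat bases (y axis, %) for the 4 clusters (squares), the longest gene-free interval on each side (open circles), the nearest LAD regions found in 14 of 14 libraries (triangles) and the median autosomal window of 100 kb (star), coloured by cluster. The clusters lie at 48.9 to 50.0% GC and 13.4 to 24.6% repeats, the LAD regions at 37.6 to 40.7% GC.

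The GC content of the 3 deserts lay between that of the clusters and that of the nearest LAD regions found in all 14 libraries. It did not lie above that of every LAD region near a cluster. On the Hoxc13 side, chr15:86292001-88642000 had 46.6% GC, more than each desert, and chr15:91419001-95759000 had 41.9%. Repeats made up 21.0% of the desert on the lower-coordinate side of HoxA, 25.9% of that on the Hoxd13 side and 22.9% of that on the Hoxd1 side. The windows of 100 kb in a LAD in all 14 libraries had a median of 37.1% GC and 42.8% repeats (1453 windows), and those in a LAD in none had 43.5% GC and 28.2% repeats (15196 windows). The 3 deserts had fewer repeats than either median. The LAD regions nearest to the clusters that were found in all 14 libraries had 37.6 to 40.7% GC.

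The genes next to the clusters and the genes that work with Hox proteins were counted beside them. The 3 nearest protein-coding genes on each side of each cluster, 24 in all, had no start site in a LAD in any library. They lie in the flanks that held no LAD, so this count was fixed in advance. Over all genes 16.7% had one in at least 1 library, so that a count of 0 in a list of a few linked genes is near that share. The closest to a LAD was Atp5g1, beyond Hoxb13, which encodes a subunit of the mitochondrial ATP synthase, at 2.13 to 2.95 Mb. Evx1 and Evx2, the homeobox genes next to Hoxa13 and Hoxd13, were 4.67 to 5.57 Mb and 3.35 to 19.8 Mb from a LAD. Of the 6 Dlx genes, homeobox genes on the chromosomes of HoxA, HoxB and HoxD, 0 were in a LAD. Dlx3, 1069 kb from HoxB, had the lowest median distance, 1.63 Mb. Dlx5, 45274 kb from HoxA, had the lowest distance in a single library, 0.324 Mb, with a median of 2.33 Mb. Of the 6 ParaHox genes, the homeobox genes related to the Hox clusters, 0 were in a LAD. Gsx1, Pdx1 and Cdx2 were 37.8 to 61.5 Mb from one, Gsx2 2.43 to 7.76 Mb and Cdx1 8.87 to 10.2 Mb. No distance was available for Cdx4.

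Hox cofactors and regulators were counted in the same way. Of the 9 genes of the TALE family, whose proteins bind DNA with Hox proteins, 2 had the start site in a LAD in at least 1 library, against 16.7% of all genes. Meis1 was in a LAD in 2 libraries, with a median distance of 0.105 Mb, and Pknox2 in 1, with a median of 0.196 Mb. Of 20 Polycomb and Trithorax genes, which hold Hox genes silent or active, 1 was in a LAD, Eed, which encodes a core subunit of Polycomb repressive complex PRC2, in 2 libraries. Ezh2, the PRC2 methyltransferase gene, was 0.296 to 0.790 Mb (median 0.512 Mb) from a LAD, on the chromosome of HoxA and 4560 kb from that cluster. More than 2 Mb from every LAD in all libraries were 13 of these 20 genes, 3 of the 9 TALE genes and, for comparison, 39 of 39 Hox genes, against 43.2% of autosomal genes.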

How the data were processed

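LMNB1 ChIP-seq of 14 mouse livers was analysed from the deposited LADs. The authors had mapped reads to mm10 with Bowtie (v2.25.0 in the submitters' processing notes), discarded duplicate reads (Picard), brought ChIP and input reads of each chromosome to equal depth by down-sampling and called LADs for each mouse with Enriched Domain Detector (EDD), with gap penalty and bin size averaged over repeated runs. The deposited files hold start and end coordinates with no score or count, so depth is unknown and no interval for counting error was given. Groups and replicate numbers came from the labels, and each library is 1 mouse. Inputs and RNA-seq were not analysed here.

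LADs were joined with the GENCODE vM21 genes and the GRCm38.p6 sequence in Python 3.11.15 with NumPy 2.4.6 and pandas 2.3.3. A gene was in a LAD if its start site was. Distances ran from the cluster span to the nearest LAD. Genome-wide distances used autosomes, since some libraries had no LAD on chromosome X. Bin size was the greatest common divisor, in kb, of the starts that fall on whole kb. Tests were exact permutation tests, checked on simulated data, with Benjamini-Hochberg adjustment over clusters, pairs of clusters or flanks. Members, lists and named genes (the end genes of each cluster, the 3 nearest neighbours on each side, the genes bounding gene-free intervals, and listed genes in or nearest to a LAD) were chosen with earlier results of these data known. Alternatives were gene bodies in place of start sites, LADs of at least 1 Mb, intersects and unions of replicates, other flank sizes, a log2 scale, a replicate block and leaving out each library. Some genes are not reported here.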

Additional observations from a re-analysis of the deposited data

How the results depend on the processing

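For the distances across CTs and between clusters, 161 of 166 alternative values kept the direction and the side of the threshold. Counting gene bodies brought no Hox gene into a LAD. The differences between pairs of clusters kept theirs except HoxD against HoxA. That difference, 2.14 Mb with all LADs, was 2.48 Mb with LADs of at least 1 Mb (p = 0.00378, exact permutation test) and 4.39 Mb with intersects of the replicates (p = 0.0156), and between 1.2 (without NS replicate 1) and 2.45 Mb with 1 library left out. The cause was not tested. The change from NS to CT0 could not pass under any setting. It shrank with LADs of at least 1 Mb, to -7.85 Mb at HoxC and -0.217 Mb at HoxA. With all LADs it was 0.024 Mb at HoxB and -6.09 Mb at HoxD. With 1 library left out it ran from -0.256 to 0.304 Mb at HoxB, turning at -0.252 Mb without NS replicate 1 and at -0.256 Mb without CT0 replicate 2, and from -12.6 to 0.447 Mb at HoxD, turning without NS replicate 1. Flank coverage was 0% at 2 Mb, and larger flanks reach LADs by construction. The group 13 side minus the other was 12.6 percentage points at HoxB with 3 Mb (p = 0.000244, exact permutation test). The Hoxb1 side was at 0% in all 14 libraries, so no difference could be negative and this p-value only restates the LAD position. No difference between CTs passed on the Hoxb13 side (F = 0.225, p = 0.920, exact permutation test). With 5 Mb it was 0.199 points at HoxA, 47.3 at HoxB and -2.93 at HoxD, and with 10 Mb -8.07 at HoxA, 28.3 at HoxB, 2.40 at HoxC and -13.5 at HoxD. The flanks of 5 and 10 Mb were added after seeing the LADs, so they are values with no test.

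Whether the replicate numbers pair the mice is not settled by these data. Deviations of same-numbered libraries correlated between time points with r from -0.157 to 0.485 (median 0.0434). The correlation was over 0.1 in 6 of 21 pairs of time points. With the replicate number as a block, F across CTs was 2.14 for HoxA, 0.223 for HoxB, 0.718 for HoxC and 0.593 for HoxD (adjusted p = 0.911 each, exact permutation test), and NS against CT0 gave p = 0.500 at each cluster, the smallest that 2 pairs allow, so no call changed. Without score or depth, a LAD seen in 1 library cannot be told from a miss in the others.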

Other observations

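Some gene families have members beside 3 or all 4 of the clusters, and these neighbours were also outside LADs. The families were picked after the neighbours of the clusters had been seen, so their counts are a description. Genes of the Nfe2 family, which encode basic leucine zipper transcription factors, lie by each cluster, Nfe2l3 697 kb from HoxA, Nfe2l1 449 kb from HoxB, Nfe2 211 kb from HoxC and Nfe2l2 910 kb from HoxD. Their median distances to a LAD were 4.41, 3.33, 31.1 and 5.16 Mb. Genes of heterochromatin protein HP1, a chromatin protein that binds the silencing mark of lysine 9 methylation on histone H3, lie by 3 clusters, Cbx3 672 kb from HoxA, Cbx1 421 kb from HoxB and Cbx5 155 kb from HoxC. Their median distances to a LAD were 4.45, 3.30 and 31.1 Mb. The start sites of these 7 genes were in no LAD and more than 2 Mb from one in all 14 libraries, as held for 43.2% of autosomal genes. They lie in the flanks of the clusters that held no LAD, so their place outside LADs was fixed in advance.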
